A study of Mus musculus with 8 samples.

Results

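Transcript levels were examined for 8 genes of the type 2 programme in mouse CD8+ T cells exposed to the liver X receptor (LXR) agonist RGX-104. They were Gata3, Maf and the cytokine genes Il3, Csf2, Il4, Il5, Il13 and Il10. They were picked by symbol, as the genes of the type 2 and IL-3/GM-CSF cytokine clusters with 2 transcription factors and Il10, from the 41730 genes of the count table, and all 8 were in it. The sequenced cells were OT-I CD8+ T cells, whose transgenic receptor recognises the ovalbumin peptide SIINFEKL. They had been cultured with bone marrow-derived dendritic cells that were loaded with this peptide and lacked LXR (LXR-/-), then purified by flow cytometry. The control group received the vehicle DMSO and the other group 2 uM RGX-104, a synthetic LXR agonist, with 4 libraries of each. Both groups share the OT-I genotype and the LXR-/- dendritic cells, so no group with LXR-competent dendritic cells and no T cells lacking LXR enter this comparison. The labels used here give neither the length of the culture nor the age of the animals. Whether replicate samples were separate cultures or animals is not given there either. The p-values therefore cover the spread among these 8 samples alone, and that spread may be technical.

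GATA3 is the zinc finger transcription factor that directs CD4+ helper T cells to the type 2 fate, and it is also needed for the development, maintenance and proliferation of CD8+ T cells. In type 2 helper cells it acts at the locus that holds Il4, Il13 and Il5, while c-MAF, encoded by Maf, activates Il4 and Il10. Il3 and Csf2 lie close together on the same chromosome and are induced by T cell receptor signals in helper and cytotoxic T cells alike. CD8+ T cells under ordinary priming make little IL-4, IL-5 or IL-13 and are instead known for interferon gamma, under the control of T-bet (Tbx21).

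The genomic context is shown first because the cytokine genes fall into 2 groups on mouse chromosome 11. In RefSeq coordinates of GRCm38.p6, Il4 spans 53612460 to 53618665 and Il13 53631323 to 53634702, both on the minus strand, with a gap of 12.66 kb. Il5 lies on the plus strand at 53720794 to 53725103, a further 86.09 kb along. Csf2 (54247270 to 54249899) and Il3 (54265085 to 54267279), both on the minus strand, are 15.19 kb apart, and a gap of 522.2 kb separates Il5 from Csf2. Gata3 lies on chromosome 2 at 9857078 to 9887953 (minus strand), Maf on chromosome 8 at 115703253 to 115706894 (minus strand) and Il10 on chromosome 1 at 131019845 to 131024970 (plus strand). RefSeq places other transcripts over Gata3, Il3 and Csf2. These held 20 counts in all libraries together over Gata3 and 1 count each over Il3 and Csf2, and none of the 8 genes has a copy on an alternate scaffold in the table.

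The promoters of Gata3, Il3, Csf2, Il5 and Il13 are printed because they let the GATA words near the genes that changed be set beside those near the genes that stayed at a few counts. Each is the 250 bases before the annotated start, 5′ to 3′ on the strand of the gene, from RefSeq (GRCm38.p6). Capitals mark a GATA word, which is AGATAA or a variant of it with T as the first letter, G as the last letter or both, on either strand. The Gata3 window lies inside the RefSeq span of the gene, since a longer transcript begins further upstream.
Gata3 (chr2:9878601-9878850, minus strand): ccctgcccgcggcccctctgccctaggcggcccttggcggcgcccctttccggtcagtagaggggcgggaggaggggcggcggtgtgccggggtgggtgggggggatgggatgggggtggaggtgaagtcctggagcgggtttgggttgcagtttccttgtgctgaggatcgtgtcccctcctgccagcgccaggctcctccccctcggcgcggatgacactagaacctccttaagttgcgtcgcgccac
Il3 (chr11:54267280-54267529, minus strand): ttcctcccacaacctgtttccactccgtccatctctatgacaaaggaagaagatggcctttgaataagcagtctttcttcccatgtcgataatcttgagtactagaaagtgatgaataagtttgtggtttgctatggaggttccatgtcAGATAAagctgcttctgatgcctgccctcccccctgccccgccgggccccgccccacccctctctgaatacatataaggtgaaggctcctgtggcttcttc
Csf2 (chr11:54249900-54250149, minus strand): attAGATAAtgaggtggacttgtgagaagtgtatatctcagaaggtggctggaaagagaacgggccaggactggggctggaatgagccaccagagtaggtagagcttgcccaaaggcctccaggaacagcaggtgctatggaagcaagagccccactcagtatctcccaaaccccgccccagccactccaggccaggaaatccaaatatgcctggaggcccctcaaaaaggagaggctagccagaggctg
Il5 (chr11:53720544-53720793, plus strand): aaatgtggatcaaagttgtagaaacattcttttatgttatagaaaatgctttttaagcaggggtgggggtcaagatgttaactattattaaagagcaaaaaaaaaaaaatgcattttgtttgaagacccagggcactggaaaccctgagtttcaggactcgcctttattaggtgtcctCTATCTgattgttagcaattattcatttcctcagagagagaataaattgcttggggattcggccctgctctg
Il13 (chr11:53634703-53634952, minus strand): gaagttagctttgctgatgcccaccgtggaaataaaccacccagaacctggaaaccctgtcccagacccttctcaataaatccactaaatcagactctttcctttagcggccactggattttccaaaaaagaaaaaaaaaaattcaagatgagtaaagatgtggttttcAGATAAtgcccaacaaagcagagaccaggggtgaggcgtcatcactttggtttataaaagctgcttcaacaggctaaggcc
In windows of 300 bases, from 250 before to 50 after a start, RefSeq entries covered 6 of the 8 genes in 7 windows, Il4 having a pair of starts. Maf and Il10 had no entry. A GATA word stood in 7 of the 7 windows, against 29.8% of 32851 mouse promoters of the same length. It lay 101 bases before the start in Il3 (position -101), at -247 in Csf2 and at -81 in Il13. In Il5 it was on the minus strand at -72, where the printed strand reads CTATCT. In Gata3 it lay after the start, at position 37, outside the printed bases. The core word of NFAT sites, GGAAA on either strand, was also in all 7 windows and in 61.3% of promoters. AP-1 words (TGAGTCA or TGACTCA, 5.2% of promoters), the MAF word TGCTGAC (4.67%) and the LXR element, a pair of AGGTCA words in the same direction with 4 bases between them (0.0152%), were not in these windows. These matches describe letters only. The genes that hold a GATA word include both those that rose with RGX-104 and those with a few counts or none, as the levels below show.

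Levels are given as CPM, the share of a gene in the counts of a library, with library sizes scaled by the trimmed mean of M values (TMM). Library totals were 33942140 to 37714355 counts in the control group and 30642316 to 35244624 in the RGX-104 group. A filter on low counts (edgeR filterByExpr, minimum count 10) left 13290 genes for the quasi-likelihood test of edgeR with Benjamini-Hochberg adjustment, in which 640 genes were higher (4.82%) and 549 lower (4.13%) at an adjusted p under 0.05. The median log2 change over all tested genes was 0.000716. Abca1, the best known LXR target, was at 1.38 to 2.09 CPM in the control group and at 118 to 132 CPM with RGX-104, in the direction that the labels give. Among the 4 RGX-104 libraries, numbered here by column, replicates 2 and 3 differed least over all genes (chi-square per degree of freedom 1.34), followed by replicates 1 and 4 (2.24). The remaining pairs within either group lay between 2.42 and 6.32. Whether the libraries of these pairs share a culture or a preparation was not tested. Calls of named genes that are lost without 1 of these pairs are given below with that value.

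Of the 8 genes, 5 passed the filter, namely Gata3, Maf, Il3, Csf2 and Il10. Gata3 and Il3 were higher with RGX-104 and 0 were lower (0 at an unadjusted p under 0.05, with DESeq2 or with limma-voom), beside 4.82% and 4.13% of all tested genes (8.95% in either direction). In the same 2 genes all RGX-104 libraries lay above all control libraries, which held for 7.07% of tested genes, and in 0 of the 5 all lay below, which held for 7.45%. Il4, Il5 and Il13 did not pass the filter and are described by their counts.

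**Figure D1:**
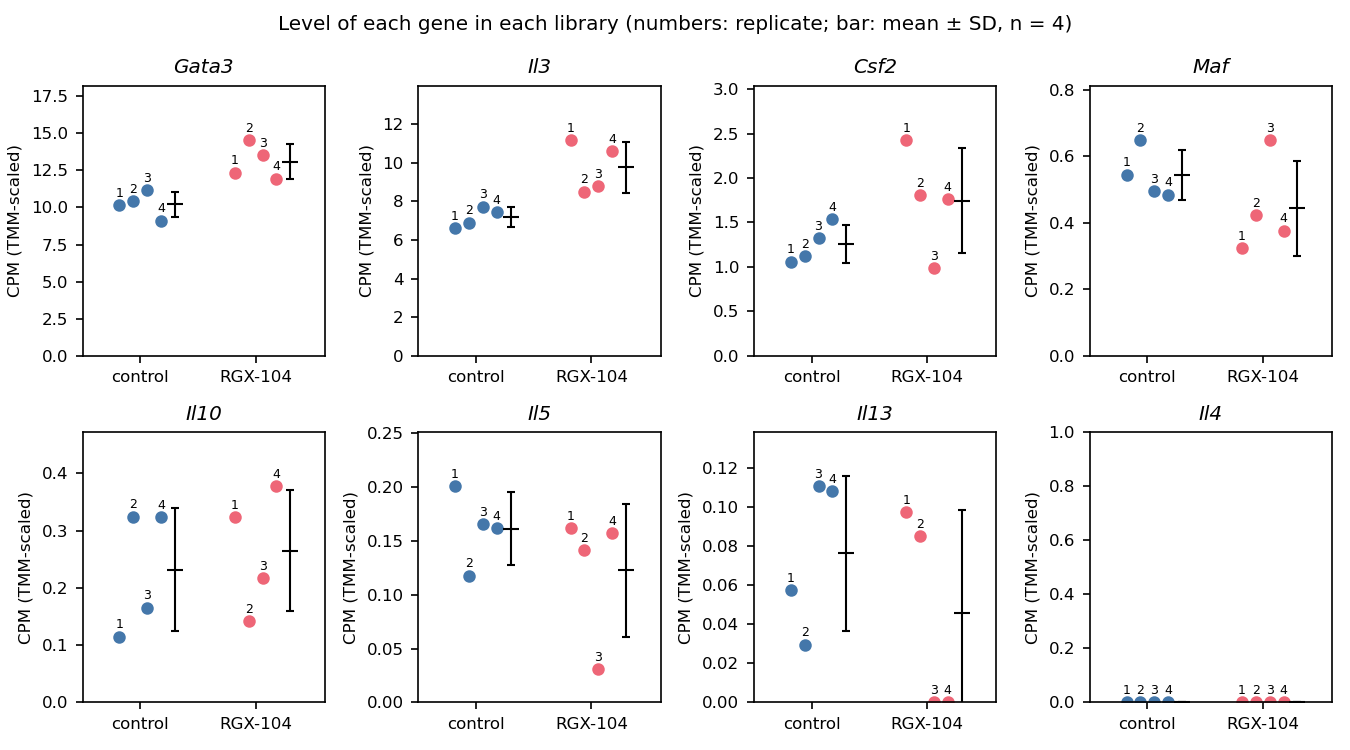
Level of each of the 8 genes in each library, in TMM-scaled CPM on a linear axis that starts at 0 and differs between panels. Numbers mark the replicate and bars the mean ± SD (n = 4 per group). Gata3 and Il3 show no overlap between groups, Csf2 overlaps through RGX-104 replicate 3, and Il4 is at 0 throughout.

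Transcripts were ordered by level per kilobase of transcript, the only scale on which levels of different genes are set side by side here. In control libraries Il3 came first with 11.4 CPM per kb, then Gata3 with 3.17, Csf2 with 1.58, Il10 with 0.177, Il5 with 0.105, Maf with 0.0855, Il13 with 0.0633 and Il4 with 0. The first 3 did not overlap with their neighbours in this order over the 4 control libraries. Il10 overlapped with Il5, Il5 with Maf and Maf with Il13, so the order among these 4 low genes is not resolved. The order of the means was the same with RGX-104, from 15.5 CPM per kb for Il3 and 4.07 for Gata3 down to 0 for Il4. For scale, Tbx21 was at 67.4 CPM per kb in control libraries and Ifng at 28.0. Thus the factor of the type 1 fate was far above Gata3 per kilobase in these cells, and of the 6 cytokine genes Il3 alone came within several fold of Ifng.

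Gata3, the factor gene of the type 2 fate, rose. Its level was 10.2, 10.4, 11.1 and 9.11 CPM in control replicates 1 to 4 and 12.3, 14.5, 13.5 and 11.9 CPM in RGX-104 replicates 1 to 4. All 4 RGX-104 libraries were above the highest control, with replicates 2 and 3 the highest. The underlying counts were 338 to 404 in control and 380 to 514 in RGX-104 libraries. The change was 0.36 ± 0.07 (log2, SE), or 28.5% (edgeR adjusted p = 0.00132). Without any single library it stayed between 0.31 and 0.41, with an adjusted p of at most 0.0110. Without RGX-104 replicates 2 and 3 together it was 0.25 ± 0.09 and no longer passed (edgeR adjusted p = 0.0936), while without replicates 1 and 4 it was 0.46 (adjusted p = 4.07e-04). In RNA from a bulk population, more cells with the transcript and more transcript per cell cannot be told apart, for Gata3 and for every gene below.

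Maf, encoding the factor c-MAF, was low. Its counts were 19, 22, 18 and 18 in control libraries and 10, 15, 21 and 12 in RGX-104 libraries, or 0.544 ± 0.0745 and 0.444 ± 0.143 CPM (SD, n = 4). RGX-104 replicates 1, 2 and 4 were below the lowest control and replicate 3 was at the level of the highest, so the groups overlapped. The log2 change of -0.28 ± 0.27 (SE) did not pass the test (edgeR adjusted p = 0.569), and at this depth a change of that size was within the error.

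Il3, which encodes the growth factor interleukin 3 for early blood cells, mast cells and basophils, rose. Its level was 6.60, 6.90, 7.73 and 7.44 CPM in the control libraries and 11.2, 8.49, 8.79 and 10.6 CPM in the RGX-104 libraries. The groups did not overlap, and here replicates 1 and 4 were the highest. Counts were 230 to 280 and 284 to 345. The change was 0.44 ± 0.09 (log2, SE), or 35.7% (edgeR adjusted p = 0.00144). Leaving out any single library gave 0.37 to 0.50 with an adjusted p of at most 0.00959. Without RGX-104 replicates 1 and 4 together it was 0.27 ± 0.09 (edgeR adjusted p = 0.102), and without replicates 2 and 3 it was 0.60 (adjusted p = 5.78e-05).

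Csf2 encodes GM-CSF, a growth factor of granulocytes and macrophages, and is the nearest cytokine gene to Il3. Its level was 1.06, 1.12, 1.32 and 1.54 CPM in control libraries and 2.43, 1.81, 0.990 and 1.76 CPM in RGX-104 libraries. RGX-104 replicates 1, 2 and 4 were above every control, while replicate 3 was below every control. The log2 change was 0.46 ± 0.21 (SE), close to that of Il3, but it did not pass (edgeR adjusted p = 0.198). Without RGX-104 replicate 3, which held 32 counts against 56 to 75 in the others, it was 0.65 ± 0.18 and passed (adjusted p = 0.0245). Without RGX-104 replicate 1, which held 75 counts, it was 0.27 (edgeR adjusted p = 0.512). The value for Csf2 thus moved by a similar amount in either direction with 1 library left out.

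The ratio of Il3 to Csf2 counts in each library compares these neighbours without any scaling of the libraries. It was 6.22, 6.16, 5.83 and 4.84 in control and 4.60, 4.69, 8.88 and 6.02 in RGX-104 libraries. The difference in the mean log2 ratio was 0.02 (two-sided exact permutation p = 0.971, adjusted p = 0.971 over the 3 ratios examined), and the spread in the RGX-104 group (SD 0.442) was wider than in the control group (SD 0.168). A p of this size does not show that the genes moved alike. The smallest p that 4 against 4 libraries allow is 0.0286.

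The cytokine genes that define type 2 helper cells were at or near 0. Il4, encoding the interleukin that promotes the type 2 fate itself, had 0 counts in all 8 libraries. A count of 0 allows up to 3 counts, so the group of 4 control libraries allows at most 0.0211 CPM and the RGX-104 group 0.0230 CPM, counting error only. Il13, encoding a cytokine of airway and gut responses, had 2, 1, 4 and 4 counts in control and 3, 3, 0 and 0 counts in RGX-104 libraries. Il5, encoding the growth factor of eosinophils, had 7, 4, 6 and 6 counts in control libraries and 5, 5, 1 and 5 with RGX-104. Its groups overlapped, with totals of 23 and 16 counts. Fitted without the filter, the log2 change was -0.39 ± 0.52 (SE) for Il5 (edgeR adjusted p = 0.724) and -0.71 ± 0.78 for Il13 (adjusted p = 0.650). No change in these 3 genes was detectable at this depth.

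Il10, encoding an anti-inflammatory cytokine made by several effector T cell types, had 4, 11, 6 and 12 counts in control libraries and 10, 5, 7 and 12 in RGX-104 libraries. The groups overlapped over nearly their whole range. The log2 change was 0.17 ± 0.40 (SE; edgeR adjusted p = 0.855).

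The 2 genes that rose differed in which RGX-104 libraries were highest. Over the mean of the control libraries, Gata3 was 1.21-, 1.43-, 1.33- and 1.17-fold in RGX-104 replicates 1 to 4, whereas Il3 was 1.56-, 1.19-, 1.23- and 1.48-fold. Gata3 was thus highest in the pair of replicates 2 and 3 and Il3 in the pair of replicates 1 and 4. Ifng was also highest in replicates 1 and 4, with 2.63-, 1.90-, 1.89- and 2.61-fold, and so did the chemokine genes Ccl3 (1.55-, 1.18-, 1.23- and 1.45-fold) and Ccl4 (1.38-, 1.02-, 1.08- and 1.36-fold). Ccr8, a chemokine receptor gene of type 2 T cells, was highest in replicates 2 and 3, with 1.19-, 1.45-, 1.63- and 1.26-fold. The other genes that rose in the list of type 2 surface genes described below were not: Il18r1 (6.47, 5.86, 5.35 and 7.04 CPM) and Icos (10.3, 10.02, 10.1 and 10.9 CPM) were highest in replicates 1 and 4, and Ccr4 in replicate 4. Csf2 matched neither, at 1.93-, 1.44-, 0.785- and 1.396-fold. These pairs are the ones that differ least over all genes, and how many other genes are highest in either pair was not counted.

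**Figure D2:**
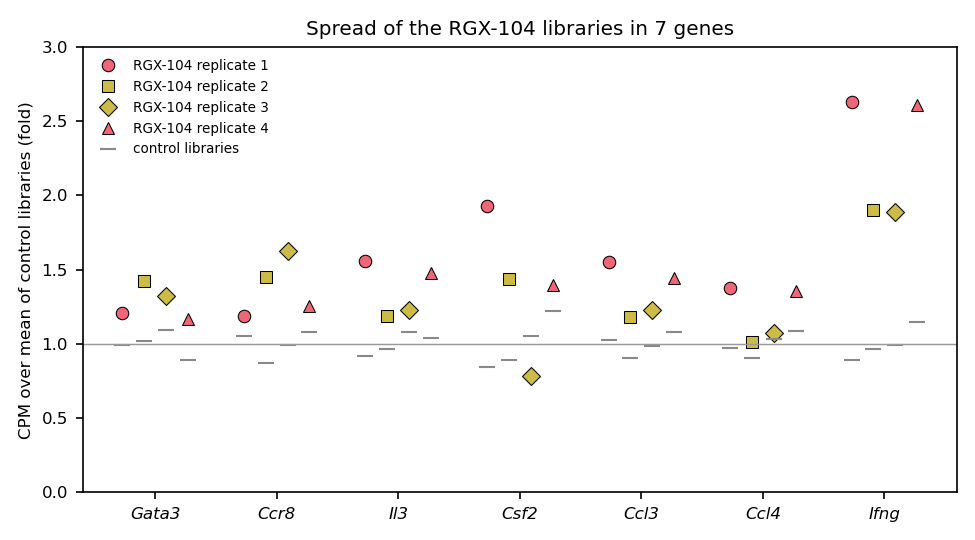
Level in each RGX-104 library over the mean of the 4 control libraries (linear axis from 0) for 7 genes. Colours mark the pairs of RGX-104 libraries that differ least over all genes (red for replicates 1 and 4, yellow for 2 and 3) and grey dashes the control libraries. Gata3 and Ccr8 are highest in replicates 2 and 3, and Il3, Ccl3, Ccl4 and Ifng in 1 and 4.

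Genes with the most similar pattern were found by Pearson's r of log2 CPM over the 8 libraries, among 9857 other tested genes whose mean log2 CPM was 1 or more. The points share the libraries, their depth and the treatment difference, so r is a description. For Gata3 the closest were Traf3ip2 (0.983), Arhgap26 (0.982) and Stat6 (0.980). STAT6 is the transcription factor that carries the IL-4 signal, and its gene was at 221 ± 1.91 CPM without and 232 ± 3.81 CPM with RGX-104 (SD, n = 4). For Il3 they were Fnip1 (0.987), Cd48 (0.979) and BC002059 (0.978). Fnip1 is a gene of nutrient sensing that lies 170.8 kb from Il3 on the same chromosome. After each group's mean was subtracted, the closest to Gata3 were Inpp1 (0.991), Ephx1 (0.985) and Traf3ip2 (0.979), and the closest to Il3 were Maff (0.981), Suv39h2 (0.980) and Chchd1 (0.977). Traf3ip2 was thus near Gata3 by both measures, while the genes nearest to Il3 differed between them. Among 9858 genes, those most like Csf2 were Zfp951 (0.962), Jag2 (0.958) and Myo1a (0.952). For Maf they were Phf21a (0.949), Sfmbt2 (0.947) and Cdyl2 (0.938), and for Il10 they included Trp53bp2 (0.948) and Alkbh1 (0.925), and both Maf and Il10 had at most 22 counts in a library.

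Gata3 was next set against Tbx21, whose product T-bet opposes GATA3 in helper T cells. The Tbx21 level was 168 ± 7.66 CPM without and 139 ± 5.77 CPM with RGX-104 (SD, n = 4). It changed by -0.27 ± 0.03 (log2, SE; edgeR adjusted p = 6.11e-06). Gata3 counts were 5.89%, 6.59%, 6.72% and 5.21% of Tbx21 counts in control libraries and 8.47%, 10.8%, 10.02% and 8.35% in RGX-104 libraries. All 4 RGX-104 libraries were above all controls, and the ratio was 1.54-fold higher (two-sided exact permutation p = 0.0286, the smallest possible, adjusted p = 0.0429 over 3 ratios). Every RGX-104 library was above all controls in Gata3 and below them in Tbx21. That fixed this p in advance, so it adds nothing to the changes of the 2 genes. Tbx21 counts still exceeded Gata3 counts in every library by this measure.

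Il3 was likewise set against Ifng, the signature cytokine of CD8+ T cells. Ifng rose from 33.8 ± 3.62 to 76.4 ± 14.2 CPM (SD, n = 4), by 1.17 ± 0.16 (log2, SE; edgeR adjusted p = 0.00632). The ratio of Il3 to Ifng counts was 0.218, 0.211, 0.231 and 0.192 in control and 0.126, 0.132, 0.137 and 0.120 in RGX-104 libraries. Il3 thus fell relative to Ifng in every RGX-104 library, to 0.605 of the control ratio (two-sided exact permutation p = 0.0286, adjusted p = 0.0429). The RGX-104 libraries lay closer together in this ratio (SD 0.0855 in log2) than in the level of Il3 or of Ifng. Il2 (1 to 17 counts) and Tnf (0 counts) have scaffold copies and were not assessed.

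**Figure D3:**
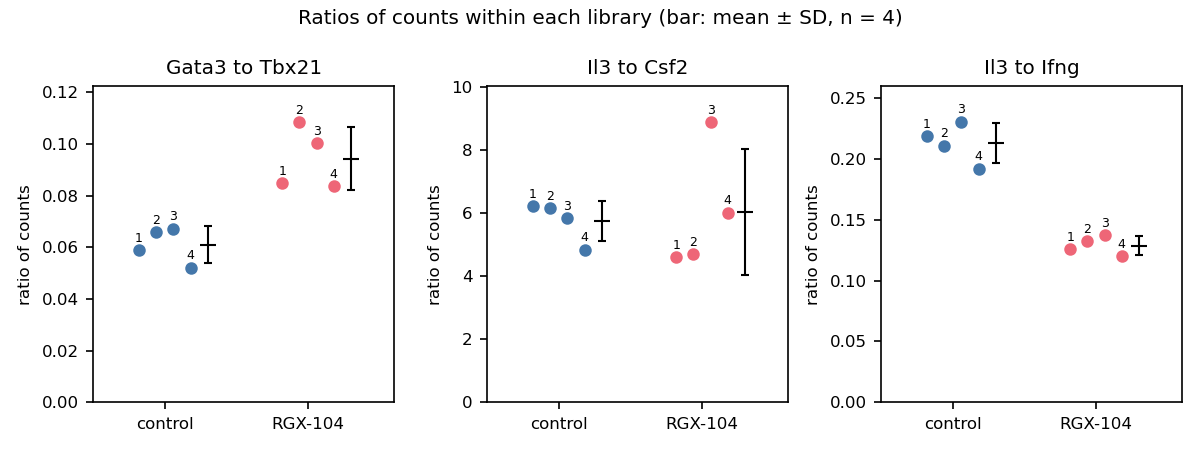
Ratio of counts within each library for Gata3 to Tbx21, Il3 to Csf2 and Il3 to Ifng, on linear axes that start at 0. Numbers mark the replicate and bars the mean ± SD (n = 4). RGX-104 libraries are all above the controls in the first ratio, overlap with them in the second and are all below them in the third.

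Genes that act upstream of Gata3 and of the type 2 fate were mostly flat or lower. The counts in this list and those below stand beside 4.82% higher and 4.13% lower of all tested genes. Of 23 listed genes 21 were tested, 1 was higher and 5 were lower (median log2 change -0.04, against 0.000716 over all tested genes), and 3 were lower without RGX-104 replicates 1 and 4. Gfi1, a repressor gene that supports type 2 cell growth, fell from 148 ± 3.86 to 112 ± 4.12 CPM (log2 change -0.40 ± 0.03, edgeR adjusted p = 5.67e-10). Ikzf3, encoding the zinc finger factor Aiolos, changed by -0.30 ± 0.04 and Il4ra, the receptor gene for IL-4 and IL-13, by -0.15 ± 0.03. Cebpb, a factor gene linked to Il4 transcription, changed by -0.30 ± 0.09 (edgeR adjusted p = 0.0290), a call lost without any of 7 single libraries (adjusted p up to 0.125) and without either pair (edgeR adjusted p = 0.111 and 0.166). Nfatc1 was also lower (-0.14, but edgeR adjusted p = 0.0694 without RGX-104 replicates 1 and 4), and the Notch effector gene Rbpj was higher (0.14 ± 0.03). Stat6 was at 0.08 ± 0.03 (edgeR adjusted p = 0.0710, but 0.0445 with DESeq2), while Irf4, Batf, Junb and Notch1 lay between -0.07 and 0.03 and did not pass.

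Genes listed as opposing type 1 factors were lower in 5 and higher in 0 of 12 tested of 14 listed, with a median of -0.19. At an unadjusted p under 0.05, 1 was higher, and with DESeq2 and limma-voom 0 were. The list leaves out Ifng (1.17 ± 0.16), Il18r1 (0.90 ± 0.10) and Havcr2 (0.65 ± 0.14), which type 1 cells also express. These genes were higher and are counted in other lists, so genes of type 1 cells did not all fall. Beside Tbx21, the lower genes included Irf1 (-0.34 ± 0.03), the interleukin 12 receptor gene Il12rb2 (-0.25 ± 0.03) and Stat4 (-0.18 ± 0.03). Runx3 and Il12rb1 have scaffold copies, between which reads may have been split. Runx3 held 6 to 10 counts and was not tested. Eomes, a relative of Tbx21, was at 48.2 ± 2.54 and 52.1 ± 4.09 CPM (edgeR adjusted p = 0.214), and without RGX-104 replicate 2 it passed as higher (0.16, adjusted p = 0.0263).

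Receptor genes for the cytokines described here were lower in 2 and higher in 0 of 8 tested of 11 listed (1 higher at an unadjusted p under 0.05, 0 with DESeq2 or limma-voom), with a median of -0.05. Il10ra changed by -0.19 ± 0.03 (edgeR adjusted p = 1.97e-05) beside Il4ra. Il3ra (11.3 CPM without and 10.2 CPM with RGX-104) and Csf2ra (8.39 and 7.99 CPM), which bind interleukin 3 and GM-CSF, did not pass (edgeR adjusted p = 0.171 and 0.609). Of 13 signalling genes downstream of these receptors, 1 was lower, the kinase gene Jak2 (-0.25 ± 0.03, edgeR adjusted p = 1.81e-06), 0 were higher (3 at an unadjusted p under 0.05, 1 with DESeq2), and the median was 0.01.

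In the list of type 2 surface genes, 4 were higher and 0 lower of 6 tested of 10 listed, with a median of 0.41. At an unadjusted p under 0.05, 1 was lower, and with DESeq2 or limma-voom 0 were. Of the 4 higher genes, Il18r1 and Icos are not particular to type 2 cells, so the count does not describe a type 2 programme. Il18r1 encodes a chain of the interleukin 18 receptor and is better known as a gene of type 1 cells. It rose from 3.32 ± 0.176 to 6.18 ± 0.733 CPM (log2 change 0.90 ± 0.10, edgeR adjusted p = 4.75e-07). Ccr8 rose by 0.47 ± 0.12 (adjusted p = 0.0128), but without RGX-104 replicate 3 it was at 0.38 (edgeR adjusted p = 0.0777) and without replicates 2 and 3 together at 0.29 (adjusted p = 0.316). Ccr4, a skin-homing receptor gene, rose by 0.25 ± 0.05, and without RGX-104 replicates 1 and 4 it was at 0.23 (edgeR adjusted p = 0.0545). The costimulator gene Icos rose by 0.35 ± 0.07, but it has a scaffold copy, between which reads may have been split. Crlf2 (-0.15) and Cysltr1 (0.77) did not pass (edgeR adjusted p = 0.0891 and 0.0837), but without RGX-104 replicate 2 Crlf2 passed as lower (-0.20, adjusted p = 0.0226). Ptgdr2, Il1rl1, Il17rb and Ccr3, which mark type 2 helper cells more narrowly, had at most 20 counts in any library and were not tested.

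Genes linked to Maf and Il10 moved both ways, with 5 higher and 2 lower of 18 tested of 21 listed and a median of 0.02. With DESeq2 and with limma-voom 4 were higher and 3 lower. Il21r (-0.08) did not pass with edgeR (adjusted p = 0.0531) but was lower with DESeq2 (adjusted p = 0.0288) and limma-voom (adjusted p = 0.0423). Procr (1.14 ± 0.21) and Havcr2 (0.65 ± 0.14) rose, as did Icos. Il27ra (0.11) and Egr3 (0.13) passed narrowly (edgeR adjusted p = 0.0355 and 0.0468). Both missed the threshold, which left 3 genes higher, without control replicate 4, RGX-104 replicate 1, 2 or 3, or either pair. Without RGX-104 replicates 1 and 4 the edgeR adjusted p was 0.0514 for Il27ra and 0.0766 for Egr3. Without replicates 2 and 3 it was 0.305 and 0.314. Prdm1, encoding the repressor Blimp-1 that favours Il10, changed by -0.37 ± 0.06 and Tigit by -0.18 ± 0.04. Without RGX-104 replicates 1 and 4 Tigit was at -0.14 (edgeR adjusted p = 0.0684), which left 1 gene lower.

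Among 24 other T cell cytokine and chemokine genes, 12 were tested, 5 were higher and 0 lower (0 lower at an unadjusted p under 0.05 too), and their median was 0.22. Beside Ifng these were Il24 (1.27 ± 0.32, edgeR adjusted p = 0.0101), Ccl3 (0.43 ± 0.08), Xcl1 (0.18 ± 0.04) and Tgfb1 (0.14 ± 0.03). Il24 had 5 to 26 counts per library, and its edgeR adjusted p was 0.0540 without RGX-104 replicate 4 and 0.0773 without replicates 2 and 3. Without RGX-104 replicates 1 and 4, Xcl1 (0.17) and Tgfb1 (0.10) did not pass (edgeR adjusted p = 0.0531 and 0.158).

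**Figure D4:**
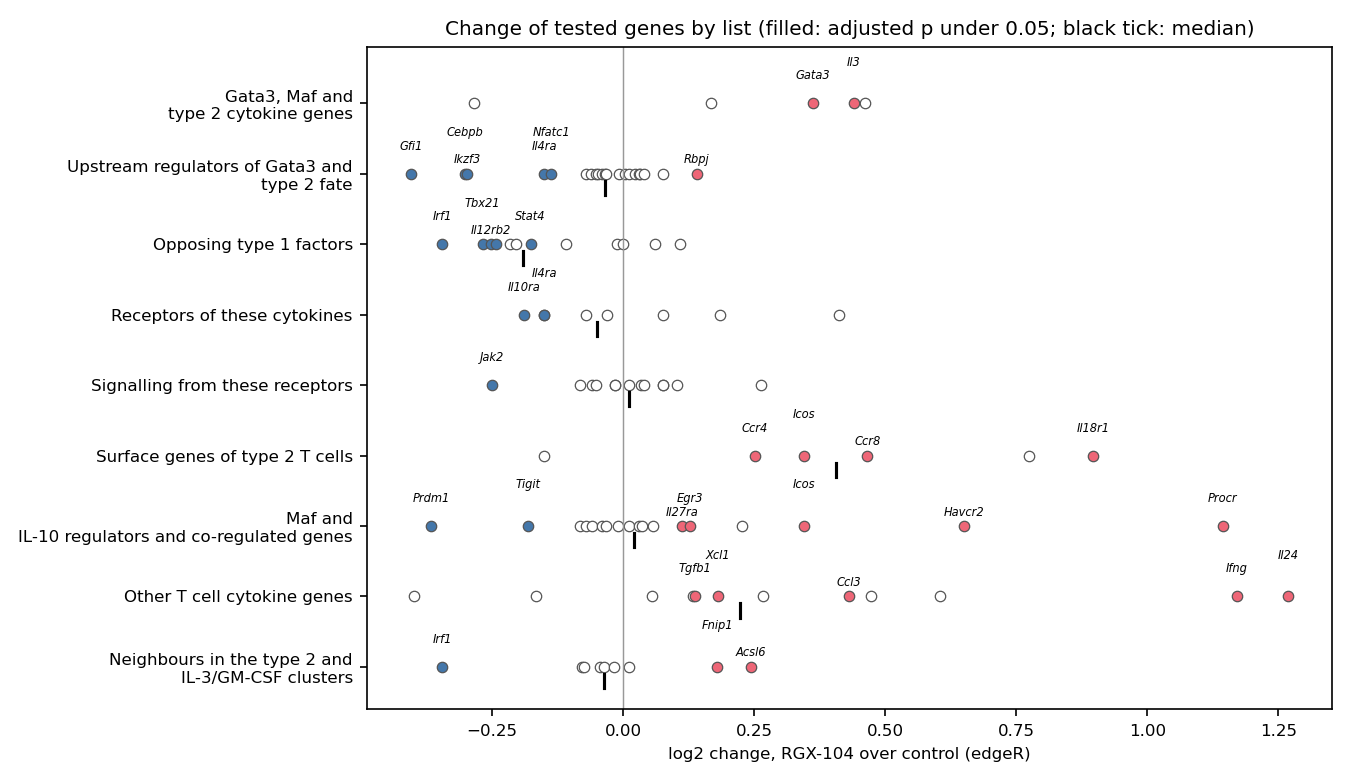
Log2 change with RGX-104 of every tested gene, by list, on a linear axis. Filled points passed the edgeR test (red higher, blue lower), and black ticks give the list's median, except in the top line. Most called genes are labelled. Called genes are all on the lower side among opposing type 1 factors and all on the higher side among genes listed as type 2 surface genes.

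The position of Il3 and Csf2 was followed along the chromosome. In the stretch around both cytokine groups 15 genes were tested, 3 were higher and 1 lower, beside 4.82% and 4.13% of all tested genes. The 3 higher genes, Il3, Acsl6 and Fnip1, lie at the Il3 end. Acsl6, a fatty acid activating enzyme gene 36.53 kb from Il3, rose by 0.24 ± 0.04 (log2, SE; edgeR adjusted p = 2.69e-04). Fnip1 rose by 0.18 ± 0.04 (adjusted p = 0.00117), and without RGX-104 replicates 1 and 4 together it was at 0.13 (edgeR adjusted p = 0.0670). P4ha2, on the other side of Csf2, was at -0.04 ± 0.05 and did not pass. The stretch was cut 0.2 Mb beyond Il3. Cdc42se2, a listed neighbour outside it, was at -0.02 ± 0.03 and did not pass (edgeR adjusted p = 0.785). Around Il4, Il13 and Il5, Rad50, which houses control elements of the type 2 locus, was at 146 ± 5.27 and 139 ± 3.31 CPM (log2 change -0.08 ± 0.03, edgeR adjusted p = 0.136) and Kif3a at 10.1 and 10.2 CPM. Irf1, 44.91 kb from Il5, fell, as given above. Within 0.2 Mb of any of the 8 genes 22 other genes were tested, and the 4 called were Il24, which lies 132.4 kb from Il10, Acsl6, Fnip1 and Irf1. That is 13.6% higher and 4.55% lower, beside 4.82% and 4.13% of all tested genes.

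**Figure D5:**
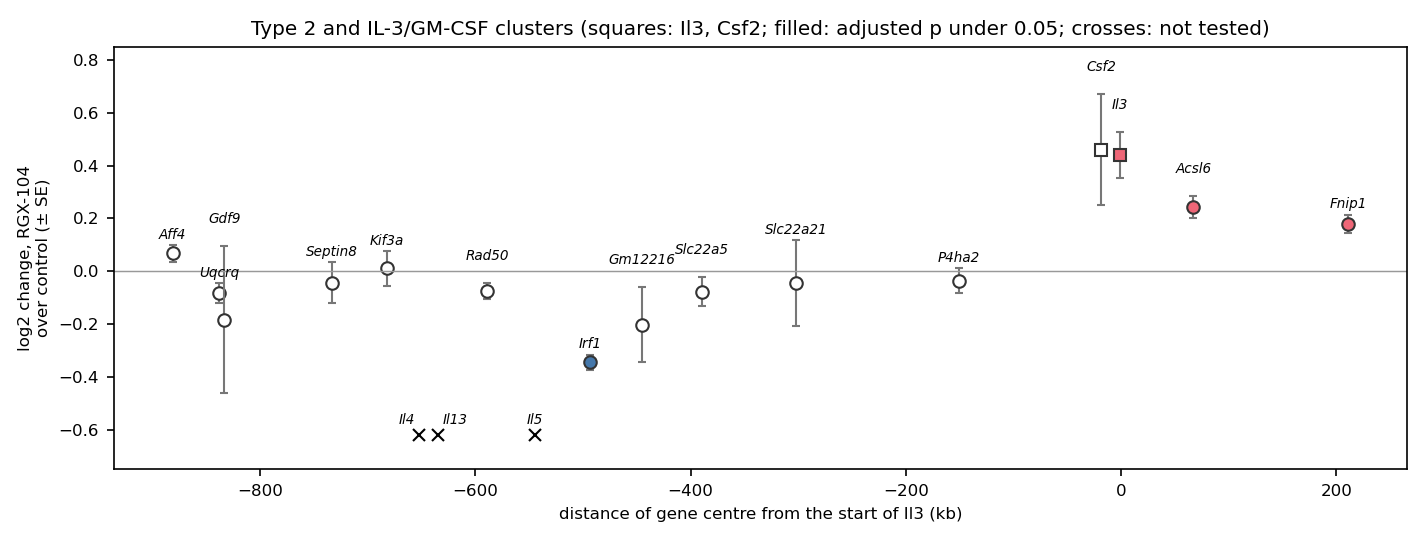
Log2 change with RGX-104 (± SE from edgeR) of tested genes against the distance of the gene's centre from the start of Il3, in kb. Squares are Il3 and Csf2, filled symbols passed the test (red higher, blue lower), and crosses at the bottom give only the position of Il4, Il13 and Il5, which were not tested. The 3 genes that rose are Il3, Acsl6 and Fnip1, at the right end.

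Several other cell types make these cytokines, and their markers were read in the same libraries. CD8 T cell markers summed to 8570 to 9241 CPM without and 9501 to 9842 CPM with RGX-104. Most of the sum was the effector gene Gzmb (5838 CPM without and 6724 CPM with RGX-104), which was higher, while Cd8a, Cd8b1 and Cd3e were lower. Cd2 (0 to 6 counts) has a scaffold copy and was not assessed. Of 11 mast cell and basophil markers 5 were at 0 in every library (Fcer1a, Mcpt8, Prss34, Cma1 and Tpsb2). The list summed to 24.9 to 34.3 CPM in control and 19.4 to 28.9 CPM with RGX-104, nearly all of it Kit, which activated T cells can also express and which did not pass (edgeR adjusted p = 0.412). The 7 eosinophil markers summed to at most 0.354 CPM, with Ear1 and Ear2 at 0. Cd4 had 3 to 14 counts and Foxp3 0 to 6, and the 4 CD4 T cell markers summed to 10.9 to 11.9 CPM without and 11.04 to 13.0 CPM with RGX-104, most of it Cd40lg and Zbtb7b. Of these Cd40lg was higher (log2 change 0.41) and Zbtb7b, the factor gene of the CD4 lineage, lower (-0.30, edgeR adjusted p = 0.0267). The 6 markers of type 2 innate lymphoid cells summed to 94.4 to 110.1 and 100.4 to 110.2 CPM, with Rora higher. Nearly all of it was Il7r (79.6 CPM without and 77.5 CPM with RGX-104) and Rora (21.9 and 27.6 CPM), which T cells also express. Il1rl1 had 7 to 20 counts, Klrg1 0 to 2 and Areg 0 to 1. The 7 myeloid markers had at most 13 counts each. The 12 dendritic cell markers summed to 113.9 to 123.5 CPM without and 125.9 to 139.1 CPM with RGX-104. Cd74 (log2 change 0.32) and Ccl22 (1.24, edgeR adjusted p = 1.45e-08) were higher. Zbtb46 held 87 to 133 counts and did not pass (0.37, edgeR adjusted p = 0.0552). Itgax held 17 to 34 counts, Flt3 4 to 17, Xcr1 4 to 7 and Clec9a 0 to 1. Most of the sum was Cst3 (48.1 CPM without and 48.8 CPM with RGX-104), Batf3 (37.9 and 39.1 CPM) and Cd74 (26.5 and 33.2 CPM). These genes are not confined to dendritic cells. H2-Aa and H2-Ab1 were at 0 but have scaffold copies, so they were not assessed. The part of RNA from dendritic cells in the levels of Il3 and Gata3 was not tested.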

How the data were processed

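The 8 RNA sequencing libraries came from OT-I CD8+ T cells purified by flow cytometry. The data deposited by the authors are raw read counts, as whole numbers for every gene and library. Software listed in the submitters' processing notes was cutadapt 2.10, STAR 2.7.5, R 4.1.0 and DESeq2 1.4, with GRCm38 as the genome build. How reads were counted, with which annotation and strand setting, is not given in the sources used here, so reads of overlapping genes cannot be told apart. Control columns carried the numbers of the control samples. Columns of the RGX-104 group named only the group, and their replicate numbers here are column numbers.

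The counts were fitted with edgeR 4.0.16 in R 4.3.3 (filterByExpr with minimum count 10 and minimum total 15, TMM scaling, robust quasi-likelihood F-test, treatment as the only term, Benjamini-Hochberg adjusted p under 0.05 over 13290 genes). The SE of a log2 change was derived from its F statistic. The fit was tested on simulated data. CPM per kb used the longest GENCODE vM21 transcript of each gene that has a RefSeq match. Ratios were tested by exact permutation of log2 ratios. Alternatives were DESeq2 1.42.0, limma-voom (limma 3.58.1), other scalings and filters, 1 surrogate variable (sva 3.50.0), a block by column number and leaving out libraries.

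The 8 genes and the lists were chosen with earlier results of these data known. Named were the 8 genes, Abca1, Tbx21, Ifng, Il2 and Tnf, up to 4 called genes of each list with the largest changes (other list genes are values beside them), and the 3 genes most like each of the 8 that passed the filter. Zbtb7b, Cd40lg and other markers are named as list members. Some genes that this rule names are not reported here.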

Additional observations from a re-analysis of the deposited data

Results flagged for a closer look

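Il5 in RGX-104 replicate 3 stood apart from the other RGX-104 libraries, at 0.0309 CPM against 0.142 to 0.162 CPM. This is 1 count against 5 in each of the others. It was the 1 value of this kind among 70 groups of 4 libraries checked over the genes named, where chance gives about 3.5. The same library held the lowest Csf2 level of its group.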

How the results depend on the processing

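Gata3 and Il3 kept their direction and their call with DESeq2, limma-voom, the other scalings and filters, 1 surrogate variable and without any 1 library. Over single libraries left out, the log2 change ranged from 0.305 to 0.407 for Gata3, from 0.370 to 0.504 for Il3, from 0.269 to 0.653 for Csf2, from -0.521 to -0.167 for Maf and from -0.0527 to 0.389 for Il10. The highest Csf2 value, without RGX-104 replicate 3, passed. The counts of the 8 genes called ranged from 2 to 3 higher and from 0 to 0 lower, and those of all genes from 462 to 719 higher and 377 to 621 lower. The log2 difference of the ratios ranged from 0.551 to 0.680 (Gata3 to Tbx21), from -0.180 to 0.136 (Il3 to Csf2) and from -0.773 to -0.685 (Il3 to Ifng), as values without a test for 3 against 4 libraries.

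Leaving out a pair of RGX-104 libraries was chosen after the data were seen. Without replicates 1 and 4, 425 genes were higher and 277 lower, 1 of the 8 genes was called, and Il3 was at 0.269. Without replicates 2 and 3, 369 genes were higher and 327 lower, Gata3 was at 0.250 and Csf2 at 0.723, which passed. The cause was not tested, and fewer libraries enter these fits. With a replicate block by column number 1109 genes were higher and 906 lower, and the block changed no call among the 8 genes. Deviations of same-numbered libraries had correlations of 0.141, 0.0746, 0.0430 and 0.157 (Pearson's r across genes, which are not independent). Each RGX-104 library was closest to the control library of its own number. Control replicate 3 was about as close to RGX-104 replicate 4 (0.0447). The labels give no pairing, and whether same-numbered libraries share a culture or a preparation was not tested. The main fit holds no term for it. Depth limits Maf, Il10, Il5, Il13 and Il4, at 22 counts or fewer in each library.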
